A study of Mus musculus with 36 samples.

Results

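Conventional CD4 T cells (Tconv) that lack HP1γ (HP1g KO) were compared with their control cells (HP1g WT) after transfer into mice without regulatory T cells (Treg). The comparison takes 6 of the 36 RNA-seq libraries of the series, 3 HP1g KO and 3 HP1g WT, chosen by their labels for genotype and for the condition Tconv. In the series, naive or grafted spleen CD4 T cells of mice deficient for HP1α or HP1γ were sequenced beside cells of control littermates. The grafted cells had been injected as naive CD4 T cells, with bone marrow of B6 and of B6D2F1 donors, into lethally irradiated B6 hosts, and Tconv that carry the T cell receptor chain Vβ6, which recognizes a superantigen of the B6D2F1 donor, were sorted from the spleen 3 weeks later.

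Per the methods of the study, HP1g KO mice were homozygous for a LoxP-flanked Hp1g allele and carried the Cd4-cre transgene, which deletes in cells of the T lineage, while the WT mice were littermates with the same LoxP-flanked allele and no Cre. The transgene is therefore present in 1 genotype only. The strains were on a mixed 129/Sv and C57BL/6 background, and young adult male mice were used for sequencing. For comparison, 6 libraries of naive HP1g KO and WT CD4 T cells, 5 libraries of HP1g Tconv grafted together with Treg (3 WT, 2 KO), and 6 libraries of Tconv grafted without Treg from the HP1a line were used. In the HP1a line the allele was deleted in all tissues with CMV-cre, and its WT controls carried 2 intact Hp1a alleles. Another KO library with Treg was left out, as in the study. The 6 libraries are labelled as separate samples, and nothing in the labels says whether the donors of the cells differed between replicates, so p-values measure the spread between these samples.

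HP1γ, encoded by Cbx3, is 1 of 3 mammalian HP1 proteins, with HP1α (Cbx5) and HP1β (Cbx1). These proteins bind histone H3 methylated on lysine 9 and recruit repressors, which keeps heterochromatin and some developmental genes silent, and HP1γ is also found along transcribed genes. After activation, Tconv follow helper programmes: Th1 (T-bet, IFN-γ), Th2 (GATA3, IL-4), Th17 (IL-17, IL-22) and the B cell helping Tfh programme (CXCR5, BCL6, IL-21), and chronically stimulated T cells acquire inhibitory receptors such as PD-1, TIGIT and LAG-3 under transcription factors of the TOX family.

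The 6 libraries held 45859029 to 53472095 estimated counts, with 22257 to 22758 genes detected. Transcripts of Trbv19, which encodes Vβ6, made 68.3 to 87.8% of all Trbv counts, against 8.73 to 9.69% in the 6 naive libraries, which is the sort seen in the RNA. Of the B cell markers, 3 of 10 were measurable, and the summed level of the list was 1.42 to 4.85 CPM (estimated counts relative to the library total, scaled by TMM). The libraries of replicate 1, which carry lower library numbers in the labels (1 and 2) than replicates 2 and 3 (5 to 8), stood apart. The summed level of 6 erythroid markers was 4838 CPM in WT library 1 and 3273 CPM in KO library 1, against 74.5 to 301 CPM in the other 4 libraries. The 10 myeloid markers summed to 446 CPM in WT library 1 and to 30.5 to 117 CPM elsewhere. The proliferation list (30 cell cycle genes) summed to 1434, 1734 and 2835 CPM in WT libraries 1 to 3 and to 1129, 4578 and 4104 CPM in KO libraries 1 to 3. The KO libraries 2 and 3 were thus the highest of the 6 and KO library 1 the lowest, so the groups overlapped. On the first principal component of the 9874 genes averaging 5 CPM or more (60.5% of the variance), both replicate 1 libraries and WT library 2 lay on one side and the other 3 on the other, while the second (18.8%) had all 3 KO libraries below 0 and all 3 WT libraries above. The part of proliferation, erythroid or myeloid transcripts in the differences described here was not tested. In such sorted bulk samples, fewer cells of a kind and less RNA per cell cannot be told apart.

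**Figure D1:**
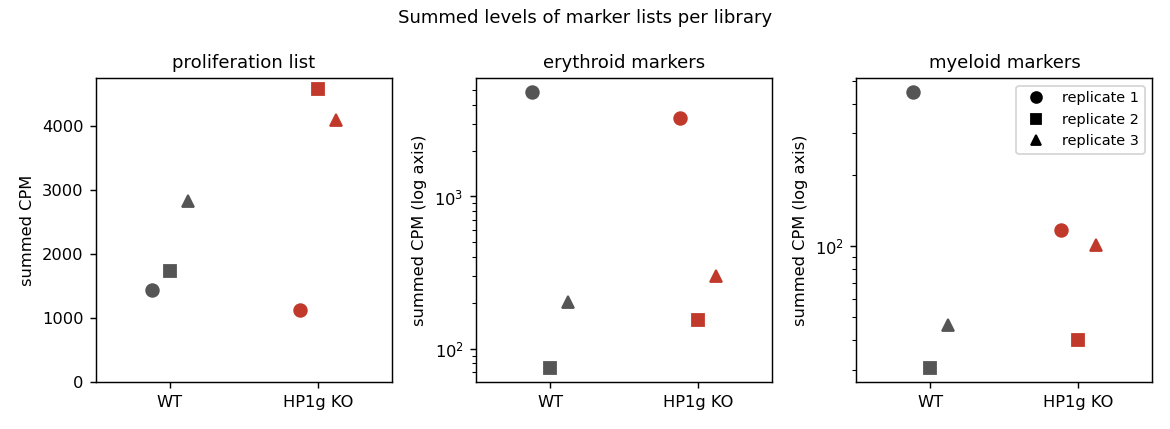
Summed CPM of the proliferation, erythroid and myeloid marker lists (y axis, logarithmic for the last 2) in each WT and HP1g KO library (x axis), with 1 marker shape per replicate number. KO libraries 2 and 3 had the highest proliferation sums, 4578 and 4104 CPM, and both replicate 1 libraries had the highest erythroid sums.

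Cbx3, the targeted gene (chr6:51447082-51460691, GRCm39), was measured first. WT libraries 1 to 3 had 84.2, 87.1 and 104 CPM and KO libraries 62.8, 66.8 and 72 CPM. Every KO library was below every WT library, but the transcript was far from absent: the log2 fold change was -0.43 ± 0.11 (SE), with an adjusted p of 0.32 by edgeR's quasi-likelihood test and 0.105 by DESeq2. In the naive libraries the level was 70.00 ± 7.85 CPM in KO against 138 ± 50.5 CPM in WT (SD, n = 3). Counts over the whole gene cannot show which exons were read, and the sources used here do not say which part of the gene the LoxP sites flank, so reads outside it check nothing. At the protein level, the study reported by western blot that HP1γ was almost completely lost from naive CD4 T cells of this line. The RNA counts given here do not measure the protein. The paralogs did not pass the test. Cbx1 had a log2 fold change of 0.26 ± 0.18 and Cbx5 of 0.56 ± 0.38 (SE, adjusted p = 0.798 and 0.789, edgeR). Cbx5 levels were 20.9, 53.1 and 51.2 CPM in KO libraries 1 to 3 and 22.1, 27.7 and 36.5 CPM in the WT libraries, and KO library 1 was the lowest of the 6 and KO libraries 2 and 3 the highest, as for the proliferation sums. Wherever values are given as one set against another, the WT libraries 1 to 3 come first and the KO libraries 1 to 3 second.

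The question of the comparison was what HP1γ deficiency does to the transcriptome of allospecific Tconv before any suppression by Treg. A gene was called at a Benjamini-Hochberg adjusted p below 0.05 and an absolute log2 fold change above 1. Of 16015 genes tested, edgeR's quasi-likelihood test called 7 (0.0437%), 5 higher and 2 lower in HP1g KO, while 1349 had an unadjusted p below 0.05. DESeq2, the test the study used, called 264 of 18459 (1.43%), 170 higher (0.921%) and 94 lower (0.509%), of which 6 were also called by edgeR. Both calls move with the libraries: leaving out 1 library left 0 to 12 genes by edgeR and 141 to 550 by DESeq2, and without both replicate 1 libraries the counts were 40 and 440. With edgeR, no gene was called without WT library 2, WT library 3, KO library 2 or KO library 3. In the DESeq2 counts, 141 were called without WT library 2, 148 without KO library 3, 162 without KO library 2 and 550 without KO library 1. The DESeq2 calls are therefore given as the wider list, and edgeR's adjusted p is given beside the genes described most closely.

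Among the 248 DESeq2 calls that edgeR also tested, all had an unadjusted edgeR p below 0.05. Of the 162 that were higher, 156 had every KO library above every WT library, and of the 86 that were lower, 74 had every KO library below. Over all tested genes the groups did not overlap for 6.84% (KO above) and 7.14% (KO below). The 248 genes were chosen by DESeq2 on these same 6 libraries, so these counts describe the calls and are no separate evidence for them. The DESeq2 genes that rose were often low in WT cells: 83 of the 162 had a WT mean under 1 CPM, as had 22.2% of all tested genes, and 25 had a WT mean of at least 5 CPM. Of the 86 that fell, 58 had a WT mean of at least 5 CPM, as had 9795 of all 16015 tested genes. Protein-coding genes made 127 of the 162 higher and 75 of the 86 lower calls and 76.7% of all tested genes, and long non-coding RNAs made 18, 4 and 11.8%.

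**Figure D2:**
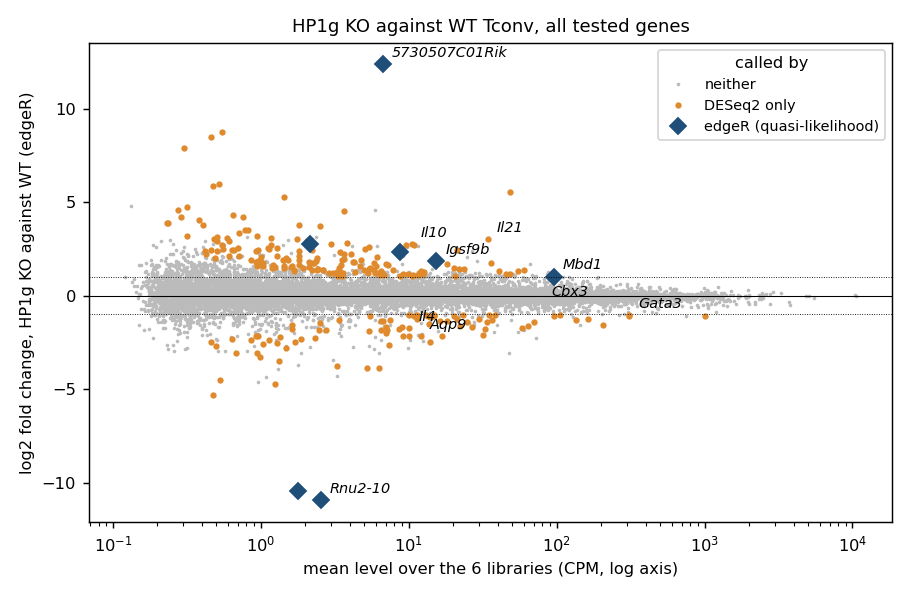
Log2 fold change of HP1g KO against WT Tconv (y axis, edgeR) against the mean level over the 6 libraries (x axis, CPM, logarithmic), 1 point per tested gene, with dotted lines at 1 and -1. Diamonds mark the 7 genes called by edgeR, including Mbd1 at 1.02, and orange points the further genes called by DESeq2 alone.

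Mbd1, which encodes a protein that binds methylated CpG and takes part in silencing, was the only edgeR call at a high level (chr18:74400676-74415803). It had 63, 63.8 and 65.8 CPM in WT libraries 1 to 3 and 134, 122 and 127 CPM in KO libraries 1 to 3. The libraries were tight within each genotype and did not overlap, giving a log2 fold change of 1.02 ± 0.078 (SE, adjusted p = 0.0178, edgeR). By DESeq2 its log2 fold change was 1.0, at the fold threshold and not past it (adjusted p = 3.88e-14). Igsf9b, an immunoglobulin superfamily adhesion molecule best known from synapses (chr9:27210500-27268842), had 6.58, 6.58 and 7.2 CPM in WT and 21.6, 28.5 and 21.7 CPM in KO libraries. It rose by 1.84 ± 0.16 on the log2 scale (SE, adjusted p = 0.0256, edgeR), and in naive cells its level was 0.00811 ± 0.014 (KO) and 0.0316 ± 0.0149 (WT) CPM (SD, n = 3).

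The other calls were less characterized transcripts. The gene 5730507C01Rik (chr12:18564407-18615852) had no count in any WT library and 10.6, 14.8 and 14.7 CPM in the KO libraries, at least 215-fold higher taking 3 counts per library as the floor (adjusted p = 0.0178, edgeR). With Treg it was at 20.6 ± 8.53 CPM in KO (SD, n = 2) and 0.143 ± 0.175 CPM in WT libraries (SD, n = 3). Gm3604 (chr13:62515527-62531019) had 2.66, 3.03 and 3.09 CPM in WT and 11.4, 16.7 and 15.7 CPM in KO libraries (log2 fold change 2.35 ± 0.21, SE), and Gm50287 (chr19:58080246-58084463) had 0.509, 0.60 and 0.565 against 3.18, 3.83 and 4.28 CPM (log2 fold change 2.77 ± 0.26, SE). Both passed the test (adjusted p = 0.0256 and 0.0335, edgeR). The 2 genes that fell were at 0 in all KO libraries. Rnu2-10, a copy of the U2 spliceosomal RNA (chr11:101549064-101549254), had 5.72, 4.77 and 4.81 CPM in WT libraries, at least 82.8-fold more than the KO floor (adjusted p = 0.0178, edgeR). Gm45062 (chr6:8259450-8597480) had 4.79, 3.26 and 2.66 CPM in WT libraries, at least 58-fold more (adjusted p = 0.0411, edgeR). The U2 genes are near-identical copies that share reads, so the estimate for Rnu2-10 is uncertain, and its presence did not follow the genotype elsewhere. It was at 0 in the naive WT and HP1a WT libraries, against 0.663 ± 1.15 CPM in naive HP1g KO and 2.59 ± 2.35 CPM in HP1a KO libraries (SD, n = 3), and with Treg it had 2.54 ± 3.6 CPM in KO (SD, n = 2) and 1.32 ± 2.28 CPM in WT libraries (SD, n = 3). Gm45062 was likewise at 0 in all naive WT libraries and at 0.455 ± 0.788 CPM in naive KO libraries (SD, n = 3), and with Treg at 0.486 ± 0.688 CPM in KO (SD, n = 2) and 2.31 ± 2.24 CPM in WT libraries (SD, n = 3).

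Several Tfh markers were higher in HP1g KO Tconv. Apart from the lists that the study used, the gene lists here and below were written with earlier results of these data known. Their counts are therefore descriptions and no independent evidence. Of 11 tested Tfh markers, DESeq2 called 3 higher and none lower (0.921% and 0.509% of all genes). Every KO library was above every WT library in 6 (6.84% of all genes). The median log2 fold change was 0.78, against 0.017 over all tested genes. By edgeR none of the 11 was called. At an unadjusted p below 0.05, 8 were higher and none lower (5% and 3.43% of all genes). Without both replicate 1 libraries the median was 0.80 and DESeq2 called Cxcr5, Il21 and Pou2af1, but not Tox2 (adjusted p = 0.11). B cell markers, whose list shares no gene with the Tfh list, were low but mostly higher in KO cells: the list summed to 1.42 to 2.12 CPM in WT and 2.06 to 4.85 CPM in KO libraries, 3 of 3 tested members had a positive log2 fold change with a median of 1.16, and 7 of 10 were too low to test. Cd79a, a subunit of the B cell receptor named after its values were seen, had 0.451, 0.156 and 0.141 against 1.08, 0.617 and 0.536 CPM without overlap (log2 fold change 1.58 ± 0.57, SE, adjusted p = 0.503, edgeR), and Igkc, described with a list of the study, was called by DESeq2. Their part in the Tfh result was not tested.

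The 3 calls in the 6 libraries were the receptor Cxcr5, the cytokine Il21 and the transcription factor Tox2. Cxcr5 guides T cells to B cell follicles. It had 14.9, 5.75 and 12.1 CPM in WT libraries 1 to 3 and 27.1, 33.1 and 29.2 CPM in KO libraries, with no overlap, and a log2 fold change of 1.47 ± 0.33 (SE, adjusted p = 0.26 by edgeR and 4.15e-04 by DESeq2). Il21, which supports germinal centre B cells, had 7.24, 5.19 and 10.4 CPM in WT libraries and 15, 97.2 and 71 CPM in KO libraries. The groups did not overlap, although KO library 1 was close to WT library 3 and far below the other KO libraries, and the log2 fold change was 3.03 ± 0.71 (SE, adjusted p = 0.301 by edgeR and 0.00715 by DESeq2). Tox2 had 15.5, 8.63 and 25.9 against 37.7, 65.3 and 64.5 CPM, again without overlap (log2 fold change 1.76 ± 0.44, SE, adjusted p = 0.315 by edgeR and 1.87e-04 by DESeq2).

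The remaining Tfh markers complete the list and, apart from Pdcd1, were named after their values were seen. Slamf6, a co-receptor of T cells, had 126, 109 and 123 against 222, 201 and 182 CPM, and Btla, an inhibitory receptor, had 46.7, 42.5 and 50.03 against 85.9, 73.2 and 73 CPM. Both were even within each genotype and without overlap. Their log2 fold changes of 0.78 ± 0.11 and 0.76 ± 0.11 (SE) lay under the fold threshold, with adjusted p-values of 2.15e-05 and 5.54e-05 by DESeq2 and 0.10 and 0.10 by edgeR. Pdcd1 (PD-1) had 17.8, 25.9 and 52 against 43.9, 167 and 92.1 CPM, where KO library 1 lay below WT library 3 (log2 fold change 1.68 ± 0.60, SE, adjusted p = 0.526, edgeR). The co-activator Pou2af1 and the adaptor Sh2d1a had log2 fold changes of 0.99 and 0.75, the costimulator Icos of 0.053 and the CD40 ligand Cd40lg of -0.26, none of them called by either tool. Bcl6, the master regulator of Tfh cells, had 8.62, 6.8 and 8.96 against 7.94, 11.1 and 10.7 CPM with overlapping groups, and a log2 fold change of 0.31 ± 0.20 (SE, adjusted p = 0.78, edgeR).

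The upstream sequences of Il21 and Tox2, which were higher, and of Il4, which was lower, are shown as examples of the called helper genes. They are the 250 bases before the RefSeq start site (GRCm38.p6, the first listed start where there are several), written 5′ to 3′ on the gene's strand, with capitals at TGGAAA, the core bound by NFAT, on either strand. The RefSeq table held 3 of the 6 genes looked up, without Cxcr5, Il10 and Igsf9b.
Il21 (chr3:37232637-37232886, minus strand): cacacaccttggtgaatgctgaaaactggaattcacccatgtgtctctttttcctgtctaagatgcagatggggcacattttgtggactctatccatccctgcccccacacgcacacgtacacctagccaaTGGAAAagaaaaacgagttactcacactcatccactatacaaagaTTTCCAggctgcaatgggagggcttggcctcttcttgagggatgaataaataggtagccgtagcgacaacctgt
Tox2 (chr2:163202877-163203126, plus strand): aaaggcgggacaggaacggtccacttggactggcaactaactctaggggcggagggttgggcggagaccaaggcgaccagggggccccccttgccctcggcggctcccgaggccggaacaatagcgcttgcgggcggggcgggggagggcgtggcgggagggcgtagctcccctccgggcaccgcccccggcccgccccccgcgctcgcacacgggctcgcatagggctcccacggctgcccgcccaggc
Il4 (chr11:53617339-53617588, minus strand): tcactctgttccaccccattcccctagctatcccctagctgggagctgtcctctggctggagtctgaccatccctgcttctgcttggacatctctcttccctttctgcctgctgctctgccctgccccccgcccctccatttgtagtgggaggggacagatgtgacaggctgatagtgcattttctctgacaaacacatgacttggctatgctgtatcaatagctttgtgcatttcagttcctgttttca
The motif TGGAAA had 2 matches in the window of Il21, starting 119 and 74 bases before the start site, and was found in neither of the other windows shown. Il4 had 2 listed starts and Tox2 had 5, of which only the first is described. The absence of a match therefore holds for these windows and not for every promoter of the gene. Over all 32851 RefSeq upstream windows of 250 bases, 18.6% held it. The AP-1 motif TGANTCA was in none of the 3 windows and in 6.75% of all.

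Of 17 inhibitory receptor genes, 7 were higher and 1 lower at an unadjusted p below 0.05 (5% and 3.43% of all genes). DESeq2 called 1 as higher (0.921% of all genes) and edgeR none, and the list median was 0.070. Tigit was the most even of them. WT libraries had 32, 32 and 30.6 CPM and KO libraries 51.6, 56.3 and 53.3 CPM, so that each genotype stayed within a narrow band and the log2 fold change was 0.79 ± 0.090 (SE, adjusted p = 0.0735 by edgeR and 6.00e-07 by DESeq2), below the fold threshold. Cd200, the DESeq2 call, had 7.19, 6.98 and 12.2 against 12.9, 46.8 and 23.5 CPM (log2 fold change 1.68 ± 0.50, SE, adjusted p = 0.00421, DESeq2). Ctla4 had 139.6, 155 and 96.4 against 203, 225 and 169 CPM without overlap (log2 fold change 0.63 ± 0.19, SE, adjusted p = 0.392, edgeR). Lag3 had 0.862, 1.13 and 3.09 against 2.0, 15 and 14.5 CPM, and Havcr2 (TIM-3) 8.25, 11.6 and 13.4 against 10.6, 37.9 and 29.3 CPM. In both, KO library 1 lay within the WT range while KO libraries 2 and 3 were above it, as with Pdcd1, and neither was called in the 6 libraries (adjusted p = 0.152 and 0.0638, DESeq2). KO library 1 also had the lowest proliferation sum and KO libraries 2 and 3 the highest. Without both replicate 1 libraries DESeq2 called Lag3 and Havcr2 (adjusted p = 2.91e-09 and 5.11e-10) and no longer Cd200 (adjusted p = 0.052).

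Of 27 tested regulators of exhaustion and anergy, DESeq2 called 3 higher and 1 lower in the 6 libraries (0.921% and 0.509% of all genes). Without both replicate 1 libraries it called 4 higher and none lower, with Egr1 and Tox2 no longer called (adjusted p = 0.129 and 0.11). Tox, which drives the exhausted state in CD8 T cells, had 29.7, 29 and 42.7 CPM in WT and 55.6, 116 and 87.6 CPM in KO libraries, without overlap, and rose by 1.38 ± 0.30 (log2, SE) with an adjusted p of 1.68e-04 by DESeq2 and 0.244 by edgeR. Il10, an inhibitory cytokine, had 1.96, 3.93 and 2.4 against 9.6, 17.9 and 27.2 CPM, again without overlap, and a log2 fold change of 2.75 ± 0.45 (SE, adjusted p = 1.15e-09 by DESeq2 and 0.143 by edgeR). Tox2 was also among them. The call in the other direction was Egr1, an immediate early gene of T cell receptor signalling, with 1794, 1515 and 843 CPM in WT and 913, 582 and 428 CPM in KO libraries. The groups overlapped in KO library 1 (log2 fold change -1.09 ± 0.36, SE, adjusted p = 0.024, DESeq2). Izumo1r, the folate receptor FR4 used as an anergy marker, had 40.6, 28.4 and 36.3 against 66.6, 75.8 and 62.4 CPM without overlap, a log2 fold change of 0.98 ± 0.15 (SE), just under the threshold. Nt5e (CD73), its usual partner as a marker, had 86.2, 53.7 and 29.1 against 84.1, 48.3 and 40.4 CPM, overlapping throughout.

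**Figure D3:**
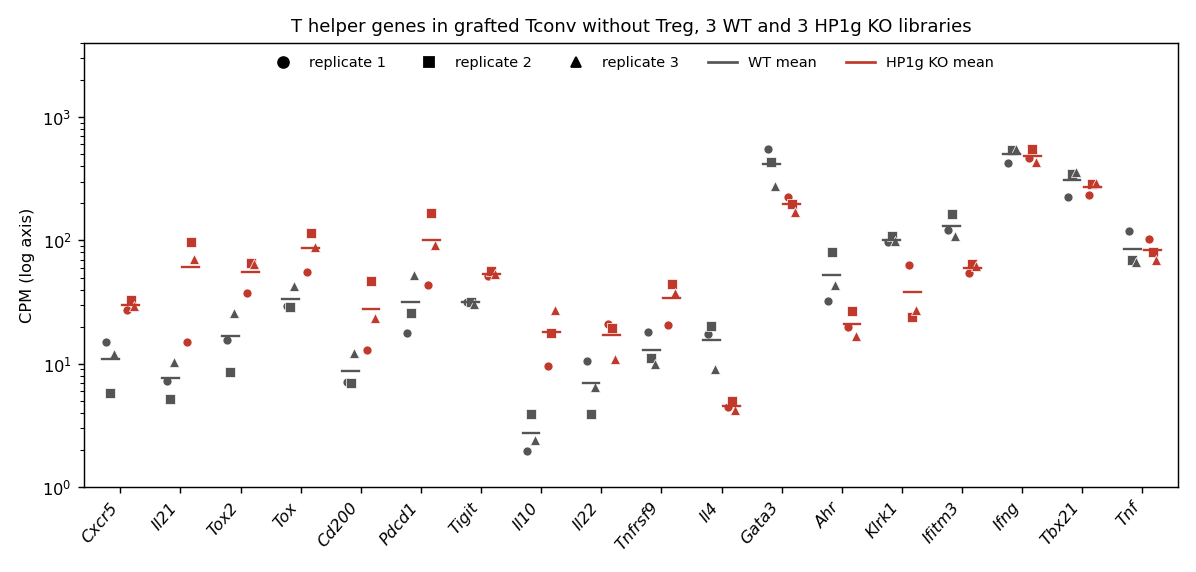
CPM (y axis, logarithmic) of 18 T helper genes in the 3 WT and 3 HP1g KO libraries, 1 point per library with 1 marker shape per replicate number and bars at the means. Cxcr5, Tox2, Tox, Il10 and Il22 were higher in all KO libraries than in all WT libraries, Il4, Gata3 and Ifitm3 lower, and Ifng, Tbx21 and Tnf overlapped.

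Il4 and Gata3 of the Th2 programme were lower in HP1g KO Tconv. All 9 measured members had a negative log2 fold change, with a median of -1.06, 6 had every KO library below every WT library (7.14% of all genes), and DESeq2 called 2 of 9 as lower (0.509% of all genes). None was called by edgeR, and 5 had an unadjusted p below 0.05. Il4, the Th2 cytokine, had 17.6, 20.1 and 9.14 CPM in WT libraries and 4.5, 5.0 and 4.24 CPM in KO libraries. The KO libraries were close to each other and below all WT libraries (log2 fold change -1.74 ± 0.29, SE, adjusted p = 0.143 by edgeR and 1.34e-06 by DESeq2). Gata3, the transcription factor of the programme, had 551, 431 and 276 against 226, 197 and 169.8 CPM, also without overlap (log2 fold change -1.06 ± 0.25, SE, adjusted p = 0.268 by edgeR and 0.00154 by DESeq2). The other members, named to complete the list, were Il1rl1 (the IL-33 receptor) at a log2 fold change of -1.82, Il13 at -2.63, Il5 at -1.44, Il4ra at -0.80, Ccr4 at -0.70, Ccr8 at -0.58 and Stat6 at -0.20, none of them called. Il13 and Il5 were at or under 1.59 CPM in all 6 libraries. Without both replicate 1 libraries the median was -0.93, all 9 were negative, and DESeq2 called Il4 but not Gata3, whose log2 fold change of -0.93 lay under the fold threshold.

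Of 16 members of the Th1 core, none was called by DESeq2 or edgeR (1.43% and 0.0437% of all genes), and the median was -0.0047. At an unadjusted p below 0.05 there was 1 member, the lower Runx3 (3.43% of all genes were lower). Runx3 encodes a Th1 transcription factor and had 128, 146 and 126 CPM in WT and 108, 105 and 113 CPM in KO libraries (log2 fold change -0.27 ± 0.088, SE, adjusted p = 0.437, edgeR). Ifng had 422, 544 and 548 CPM in WT libraries and 462, 551 and 429 CPM in KO libraries. These overlapped, with a log2 fold change of -0.049 ± 0.15 (SE). Tbx21, which encodes T-bet, had 225, 346 and 358 against 232, 286 and 293 CPM, and Tnf 120.0, 69.7 and 67.2 against 102, 81.2 and 69.1 CPM, both overlapping, as did Il2 with 9.67, 17.8 and 24.8 against 14.6, 12.3 and 16.6 CPM. On a list of 75 Th1 genes that the study used, 72 were tested. DESeq2 called 1 higher (Cxcr5) and 2 lower (0.921% and 0.509% of all genes). At an unadjusted p below 0.05, 3 were higher and 11 lower (5% and 3.43% of all genes). The 2 that fell were Klrk1, the NKG2D receptor, with 97.4, 109 and 98.4 against 62.7, 24 and 27.5 CPM, and Ifitm3, an interferon-induced antiviral membrane protein, with 122, 164 and 109 against 54.3, 64.3 and 61.6 CPM. Both were without overlap, with log2 fold changes of -1.39 ± 0.37 and -1.11 ± 0.16 (SE, adjusted p = 0.00106 and 1.75e-06, DESeq2).

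Of 11 tested genes of the Th17 core, DESeq2 called Il21 and Il22 as higher and Ahr as lower (0.921% and 0.509% of all genes). The median was 0.57. Il22, a cytokine acting on epithelia, had 10.5, 3.93 and 6.49 CPM in WT and 21, 19.5 and 10.9 CPM in KO libraries, where WT library 1 and KO library 3 nearly met (log2 fold change 1.32 ± 0.40, SE, adjusted p = 0.0198, DESeq2). Ahr, a ligand-activated transcription factor that acts in Th17 cells, had 32.5, 80.00 and 43.8 against 19.8, 26.6 and 16.9 CPM (log2 fold change -1.28 ± 0.35, SE, adjusted p = 0.00421, DESeq2). Without both replicate 1 libraries the call of Ahr was lost (adjusted p = 0.0758, DESeq2), and 9 of 10 tested members were positive with 2 called higher and none lower. The defining cytokine gene Il17a was low, with 5.47, 0.934 and 3.51 CPM in WT and 3.25, 4.64 and 1.56 CPM in KO libraries, and the groups overlapped.

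Of 21 tested effector cytokines, DESeq2 called 4 higher and none lower (0.921% and 0.509% of all genes). Besides Il10, Il21 and Il22 this was Spp1 (osteopontin), with 0.862, 1.62 and 3.69 CPM in WT libraries and 3.01, 249 and 31.8 CPM in KO libraries. Its call rests on KO libraries 2 and 3, as KO library 1 lay within the WT range (log2 fold change 5.54 ± 1.67, SE, adjusted p = 0.0128 by DESeq2 and 0.431 by edgeR). Csf2, which encodes GM-CSF, had 26.4, 113 and 41.1 against 13, 25.3 and 7.26 CPM, with every KO library below every WT library, and was called by neither tool (log2 fold change -1.96 ± 0.69, SE, adjusted p = 0.513, edgeR). Among 15 genes of cytotoxic proteins and chemokine ligands none was called in the 6 libraries by DESeq2 or edgeR (1.43% and 0.0437% of all genes). Without both replicate 1 libraries DESeq2 called 2 higher, with Ccl3 among them (adjusted p = 0.0165), and 1 lower. Ccl3 had 6.01, 5.23 and 14.7 against 15.5, 72.2 and 46.5 CPM (log2 fold change 2.39 ± 0.68, SE, adjusted p = 0.0536, DESeq2) and Ctsw, cathepsin W, 332, 420.0 and 385 against 297, 263 and 246 CPM (log2 fold change -0.47 ± 0.12, SE, adjusted p = 0.0457, DESeq2), both without overlap.

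Of 10 tested Treg markers, none was called in the 6 libraries by DESeq2 or edgeR (1.43% and 0.0437% of all genes). Foxp3 was at 8.76, 4.2 and 1.26 CPM in WT libraries and 2.17, 1.85 and 2.38 CPM in KO libraries, overlapping. Ikzf2, the Treg factor Helios that activated T cells also express, had 7.25, 11.4 and 20.01 against 21.6, 74.6 and 39.5 CPM, with every KO library above every WT library and an adjusted p of 0.158 by DESeq2. Without both replicate 1 libraries DESeq2 called Ikzf2 as higher (adjusted p = 0.0363), the 1 call of the list. Of 16 costimulatory genes, DESeq2 called Tnfrsf9 (4-1BB) and Tnfrsf8 (CD30) as higher (0.921% of all genes). Tnfrsf9 had 18.1, 11 and 9.93 against 20.8, 44.3 and 37.4 CPM and Tnfrsf8 0.353, 0.267 and 0.726 against 1.21, 1.49 and 1.95 CPM, both without overlap (log2 fold changes 1.42 ± 0.34 and 1.80 ± 0.46, SE, adjusted p = 0.00145 and 0.027, DESeq2). Of 20 genes of naive and memory identity 16 had a negative log2 fold change. DESeq2 called 1, as higher (0.921% of all genes). This was Myb, with 10.1, 5.47 and 6.92 against 17.1, 15.4 and 14.8 CPM (log2 fold change 1.10 ± 0.24, SE, adjusted p = 0.0018, DESeq2). Of 23 chemokine and homing receptors, DESeq2 called 1 higher and 1 lower (0.921% and 0.509% of all genes). Cxcr5 was higher, and Ccr9, the gut homing receptor, was lower, with 14.1, 37.6 and 30.9 against 15, 9.62 and 14.1 CPM. WT library 1 lay inside the KO range for Ccr9 (log2 fold change -1.07 ± 0.37, SE, adjusted p = 0.0486, DESeq2).

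**Figure D4:**
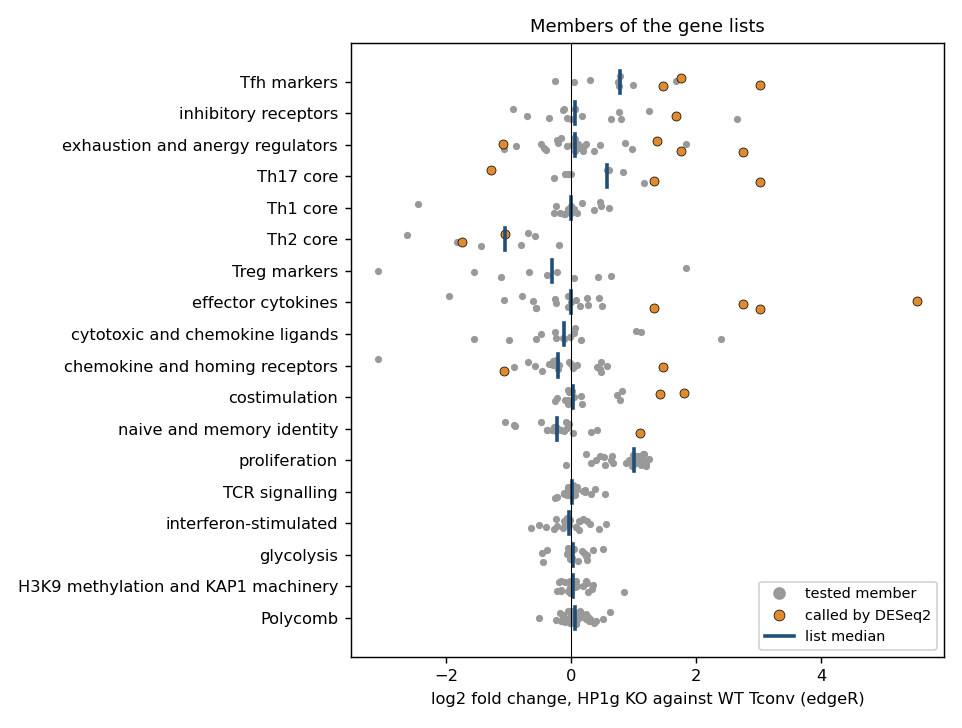
Log2 fold changes (x axis, HP1g KO against WT Tconv, edgeR) of the tested members of 18 gene lists (y axis), 1 point per gene, with orange points for DESeq2 calls and bars at the medians. The Tfh list had a median of 0.78 and the Th2 list of -1.06. The proliferation list sat near 1.0 with no call in the 6 libraries.

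Of the sorting and lineage lists, 9 genes of the sorted T cells (such as Cd4), 4 CD8 T and NK markers and 8 MHC class II genes held no call by DESeq2 or edgeR (1.43% and 0.0437% of all genes). Of the 8 MHC class II genes, 7 had a positive log2 fold change, with a list median of 0.60 and overlapping groups.

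No member of the lists on T cell receptor signalling (24 genes), interferon-stimulated genes (23), glycolysis (18), cholesterol and fatty acid synthesis (20), the BCL2 family (15) or stress response and amino acid transport (15) was called by either tool. Of all genes, DESeq2 called 1.43% and edgeR 0.0437%. The medians of these lists lay between -0.10 and 0.033. Cd247, the CD3ζ chain, had 347, 331 and 303 against 410.1, 398 and 402 CPM, and the kinase gene Txk 66.3, 70.1 and 68.6 against 98.3, 80.9 and 115 CPM, both with every KO library above every WT library (adjusted p = 0.347 and 0.275, edgeR). The glucose transporter gene Slc2a3 had 259, 328 and 286 against 192, 218 and 213 CPM and Lss, of sterol synthesis, 39.9, 43 and 39.2 against 29.2, 30.6 and 31.1 CPM, both without overlap (log2 fold changes -0.46 and -0.40, adjusted p = 0.0486 and 0.0551, DESeq2). Of the 30 proliferation genes, 29 had a positive log2 fold change with a median of 1.0, yet none had groups without overlap and none an unadjusted p below 0.05. Without both replicate 1 libraries the median was 1.20 and DESeq2 called 8 of them.

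The genes with the largest changes were named by rule: those called by DESeq2, with an unadjusted edgeR p below 0.05, groups that did not overlap and an average level of 5 CPM or more, without receptor segments, predicted genes, clones and pseudogenes. This left 82 genes, 37 higher and 45 lower. The 10 highest were Il21, Il10, Bcl2a1a, Dnase1l3, Vmn2r96, Slc37a2, Angptl2, Igsf9b, Tox2 and Pcdhgc4, with log2 fold changes of 3.03 down to 1.76. Dnase1l3, a secreted DNase, had 1.29, 3.65 and 2.76 CPM in WT libraries and 15.7, 20.2 and 13.8 CPM in KO libraries, and Angptl2, a secreted angiopoietin-like protein, 8.48, 3.0 and 8.55 against 34.2, 50.3 and 21.8 CPM. Both had groups without overlap, as the naming rule required (adjusted p = 5.14e-12 and 4.69e-07 by DESeq2, 0.103 and 0.228 by edgeR). Bcl2a1a, an anti-apoptotic BCL2 relative, had 1.57, 2.3 and 4.71 against 14.1, 26.2 and 15.8 CPM. It has near-identical copies, as have the vomeronasal receptor gene Vmn2r96 and the γ-protocadherin Pcdhgc4, which shares exons with its neighbours, so reads may be split between copies.

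The 10 lowest were Fgd5, Krt80, Pros1, Cysltr1, Cbfa2t3, Aqp9, Adgrg3, Hrh4, Ptgir and Gcm2, with log2 fold changes of -3.89 to -1.87. Among them were receptors for small inflammatory mediators, Cysltr1 for cysteinyl leukotrienes, Hrh4 for histamine and Ptgir for prostacyclin. Cysltr1 had 38.3, 23.7 and 9.48 CPM in WT libraries and 5.16, 4.53 and 2.76 CPM in KO libraries. Hrh4 had 33, 36.6 and 12.5 against 9.98, 5.0 and 3.17 CPM, and Ptgir 74.5, 55.2 and 24.7 against 9.47, 14.4 and 11.3 CPM. In each, all KO libraries lay below all WT libraries, as the naming rule required (log2 fold changes -2.49 ± 0.53, -2.15 ± 0.56 and -2.11 ± 0.41, SE, adjusted p = 1.23e-06, 1.06e-04 and 4.69e-07, DESeq2). Aqp9, an aquaglyceroporin, was the most even, with 22.8, 22.7 and 13.7 against 6.03, 3.27 and 3.73 CPM (log2 fold change -2.16 ± 0.30, SE, adjusted p = 0.10 by edgeR and 2.13e-10 by DESeq2). Fgd5 with 1.53, 30.03 and 3.87 against 0.756, 1.08 and 0.493 CPM and the keratin gene Krt80 with 18.5, 8.89 and 2.16 against 0.68, 0.361 and 0.921 CPM spread widely among the WT libraries. Cbfa2t3, an ETO family co-repressor, had 16.4, 20.3 and 8.11 against 4.22, 3.49 and 2.1 CPM, and Pros1, a ligand of TAM receptors, 23.4, 10.7 and 4.2 against 2.57, 1.47 and 2.01 CPM.

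Genes of the machinery that writes and reads heterochromatin were also listed. Of 29 tested genes of H3K9 methylation and KAP1, 32 of Polycomb and 19 of DNA methylation, DESeq2 called none and edgeR called Mbd1 alone. Of all genes, DESeq2 called 1.43% and edgeR 0.0437%. At these shares lists of this size would hold few calls, so the counts do not show whether the machinery differs from other genes. The list medians were 0.031, 0.068 and 0.022. Atf7ip, a partner of the methyltransferase SETDB1, had 144, 144 and 143 CPM in WT libraries and 158, 166 and 185 CPM in KO libraries, a small difference without overlap (log2 fold change 0.26 ± 0.091, SE, adjusted p = 0.469, edgeR). Aebp2 and Kdm2b, of Polycomb complexes, had log2 fold changes of 0.26 ± 0.080 and 0.36 ± 0.13 (SE, adjusted p = 0.405 and 0.503, edgeR), also without overlap.

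Clustered zinc finger genes are a known site of HP1 and methylated H3K9. A group of 346 tested protein-coding genes with a zinc finger symbol (Zfp, Zscan or Zkscan and a number) was defined after calls had been seen. The group was taken by symbol alone, so it does not separate clustered from other zinc finger genes. Of these 346 genes, DESeq2 called 8 higher (2.31%, against 0.921% of all genes) and none lower. Every KO library was above every WT library in 47 and below in 6 (6.84% and 7.14% of all genes). The median log2 fold change was 0.096. Zfp992 had 1.84, 2.17 and 1.83 CPM in WT and 5.69, 7.55 and 6.68 CPM in KO libraries, and Zfp781 2.57, 3.39 and 2.9 against 9.61, 7.92 and 6.45 CPM, both without overlap (adjusted p = 4.48e-10 and 1.80e-06 by DESeq2, 0.0735 and 0.127 by edgeR). On the genome (GRCm39), 7 groups of 3 or more DESeq2 calls had no gap above 500 kb. Within each of the 7 groups the genes had the same direction. How often tested genes lie this close was not computed, so these positions are a description. The 5 higher genes at chr1:84929657-85478298 were predicted genes, and the 4 higher genes at chr10:81563757-81958762 included Zfp781 and BC024063. Another 4 higher genes at chr17:18793413-19710334 included 3 vomeronasal receptor genes, and 3 higher genes at chr18:37818263-37975014 were γ-protocadherins. The 3 lower genes at chr14:52665385-53280348 were Trav segments. Of the 106 tested genes within 10 Mb of Cbx3 none was called by DESeq2 or edgeR, against 1.43% and 0.0437% of all genes. At these shares 106 genes would hold few calls, so the count does not show whether the region differs.

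A list of 104 exhaustion genes that the study used, of which 97 were tested, had 9 DESeq2 calls, all higher (0.921% of all genes). At an unadjusted p below 0.05, 27 were higher and 6 lower (5% and 3.43% of all genes), and the median was 0.25. Beside Il10, Spp1, Tnfrsf9 and Cd200, the named members included Adgrg1 with 1.49, 0.622 and 0.968 against 2.15, 4.25 and 4.58 CPM, Pawr with 3.33, 2.89 and 3.35 against 5.92, 7.89 and 8.23 CPM and Setbp1 with 0.862, 0.667 and 1.61 against 3.78, 3.55 and 3.08 CPM, all without overlap. A further 151 genes had been selected by the study as higher and more accessible in HP1g KO Tconv grafted with Treg, from a cluster of expression patterns over the conditions of these libraries, so it is not independent evidence of its direction. Here 137 were tested, and in Tconv without Treg DESeq2 called 39 higher and none lower (0.921% and 0.509% of all genes). By edgeR 2 were called (0.0437% of all genes). Every KO library was above every WT library in 73 and below in none (6.84% and 7.14% of all genes). The median was 0.99. Lratd1 had 0.294, 0.245 and 0.525 CPM in WT and 2.06, 7.02 and 4.93 CPM in KO libraries, and Naip5, a sensor of bacterial flagellin, 2.4, 1.6 and 2.08 against 6.31, 8.88 and 7.47 CPM. Fam241b had 3.62, 2.78 and 3.35 against 8.0, 8.31 and 8.7 CPM, and 2410018L13Rik 0, 0.0236 and 0.0206 against 1.19, 0.83 and 0.774 CPM, in WT libraries from at most 1 count. Igkc, the immunoglobulin light chain of B lineage cells, also belongs to the list and was called by DESeq2, with 1.37, 2.09 and 3.79 against 2.72, 10.2 and 16.4 CPM and overlapping groups. Reads of Naip5 may be shared with its paralogs. In the first 4 genes the groups were apart (adjusted p = 4.77e-10, 7.73e-10, 5.73e-08 and 5.38e-05, DESeq2, and 0.113, 0.0995, 0.10 and 0.0735, edgeR).

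The genes called in Tconv without Treg mostly had a log2 fold change of the same sign in the 5 separate libraries of Tconv grafted with Treg. Of the 162 higher genes, 157 (96.9%) had a positive log2 fold change there with a median of 1.99, and 132 exceeded 1, against 49.4% positive, a median of -0.0042 and 6.51% above 1 over all tested genes. Of the 86 lower genes, 79 (91.9%) were negative with a median of -1.31, against 50.6% negative over all tested genes. In naive cells the same 162 and 86 genes had medians of 0.14 and 0. There 91 of 162 (56.2%) were positive and 37 of 86 (43.0%) negative, against 45.8% and 53.1% of all tested genes. Of the higher genes 21.0% exceeded 1, and of the lower genes 11.6% lay below -1, against 3.76% and 2.43% of all. Some, such as Insrr and Ralyl, had a fitted value of exactly 0 in naive cells, and the naive medians and shares include them. In HP1a KO against WT Tconv the medians were 0.13 and 0.11. Positive were 93 of 162 (57.4%) and negative 39 of 86 (45.3%), against 50.8% and 49.2% of all. There 11.7% of the higher genes exceeded 1, against 4.57% of all. These are descriptions of a gene set chosen in Tconv without Treg. Side by side, Cxcr5 had log2 fold changes of 1.47 without Treg, 2.44 with Treg, -0.35 in naive cells and -0.21 in the HP1a line, Tox of 1.38, 2.55, -0.23 and 0.15, and Mbd1 of 1.02, 1.04, 0.49 and 0.34. In the same order Tigit was at 0.79, 1.89, -0.10 and -0.19, and Tbx21 at -0.17, -1.01, 0.42 and -0.37. Il21, Il4 and Igsf9b were barely detected in naive cells, at no more than 0.0697, 0.0485 and 0.0485 CPM in any naive library, so no fold change is given there. Without Treg, with Treg and in the HP1a line, Il21 was at 3.03, 3.37 and -0.039, Il4 at -1.74, -0.40 and 0.33, and Igsf9b at 1.84, 2.26 and 0.60.

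**Figure D5:**
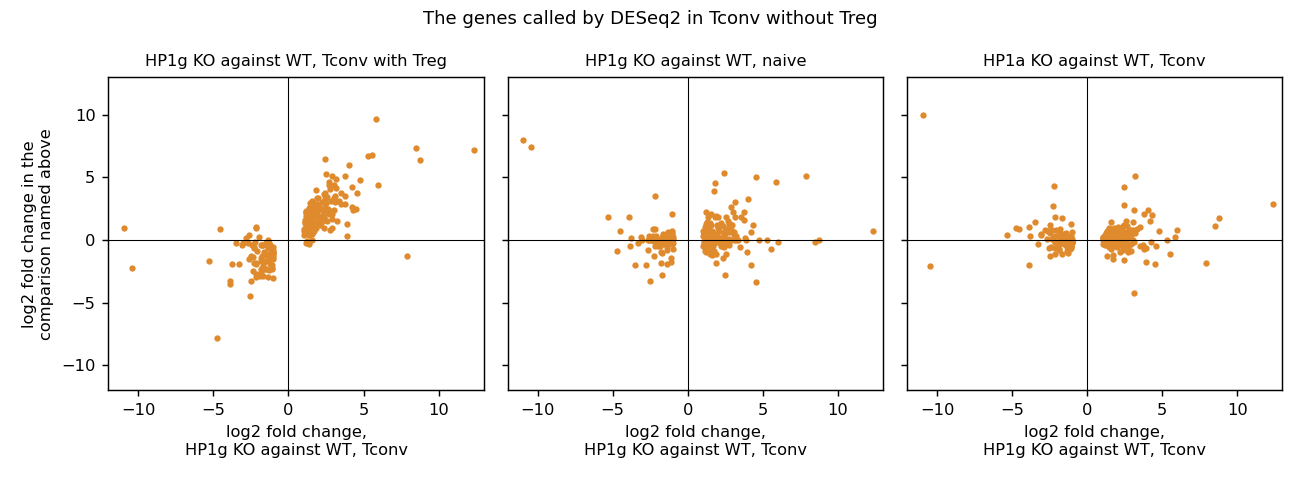
The 248 genes called by DESeq2 and tested by edgeR, with their log2 fold change in HP1g KO against WT Tconv (x axis) against that in Tconv with Treg, in naive cells and in HP1a KO against WT Tconv (y axes, left to right). With Treg, 157 of the 162 higher genes were above 0 and 79 of the 86 lower genes below.

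The differences between these effects were tested as interactions with edgeR. Between Tconv grafted with and without Treg, 0 of 17833 genes were called (0%), with 667 at an unadjusted p below 0.05. The lowest adjusted p was 0.053, and DESeq2 called 15. A gene not called may still differ, as only 2 KO libraries with Treg entered. In simulated data for the difference from naive cells, edgeR recovered 8% of 2-fold and 60% of 4-fold changes. The difference with Treg was not simulated. Against naive cells 4 of 17024 genes were called (0.0235%), and against the HP1a line 2 of 16979 (0.0118%). DESeq2 called 103 and 142 of these interactions. The 4 became 0 without WT library 1, WT library 2 or KO library 1 of Tconv or without any 1 of the naive KO libraries, and 12 without WT library 3. The 2 became 5 without HP1a KO library 1. Myo5b, a myosin motor gene that lies downstream of Mbd1 on chromosome 18 (chr18:74574007-74907382), had 0, 0.0222 and 0.0202 CPM in WT and 1.38, 0.85 and 0.835 CPM in KO Tconv, and 0.337 ± 0.0497 and 0.302 ± 0.0465 CPM in naive cells (SD, n = 3). The WT Tconv libraries held 0, 1 and 1 counts of it, so that the fitted size of the difference, 6.16 ± 0.77 on the log2 scale (SE, adjusted p = 0.024, edgeR), depends on few counts. Gm50287 was also higher in Tconv, by 2.71 ± 0.35 (SE, adjusted p = 0.024, edgeR). Casp1, the inflammasome protease, had 178 ± 6.24 (KO) and 148 ± 13.8 (WT) CPM in Tconv, and 2.99 ± 0.518 against 8.93 ± 2.26 CPM in naive KO and WT cells (SD, n = 3). The effect was higher in Tconv by 1.89 ± 0.27 (log2, SE, adjusted p = 0.0467, edgeR). The transcript Gm19951 was at 4.39 ± 1.93 (KO) and 7.12 ± 0.939 (WT) CPM in Tconv, and at 26.3 ± 6.04 against 3.67 ± 0.978 CPM in naive KO and WT cells (SD, n = 3), a difference between the effects of -3.48 ± 0.45 (log2, SE, adjusted p = 0.024, edgeR). Against the HP1a line the genes were a Trav segment and the pseudogene Rps7-ps3, whose level was 5.42, 5.18 and 5.03 CPM in HP1g KO libraries and 5.84, 5.41 and 4.9 CPM in HP1g WT libraries, and 36.4 ± 1.88 against 7.1 ± 0.648 CPM in HP1a KO and WT Tconv (SD, n = 3). The difference between the lines was -2.40 ± 0.17 (log2, SE, adjusted p = 1.79e-04, edgeR).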

How the data were processed

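RNA of sorted T cells was amplified from low input with a SMART-Seq kit that does not mark strand and sequenced in paired ends. Per the labels and methods, the authors aligned reads with STAR to mouse GRCm39 and deposited 1 table of Salmon estimated counts for 56748 genes, of which 82.9% of values were whole. The estimated counts, in which reads of near-identical genes are split between copies by estimate, were rounded to whole numbers before tests. Without strand, antisense and overlapping genes cannot be told apart.

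The 6 libraries were compared with edgeR 4.0.16 (R 4.3.3, TMM, filterByExpr, robust quasi-likelihood test, Benjamini-Hochberg adjustment over all genes tested). The test used by the authors, DESeq2 (1.42.0), was run as an alternative with its own size factors, at the same thresholds. Differences between conditions were interaction terms in fits of 11 or 12 libraries. Levels are CPM scaled by TMM over the 23 libraries used, in 8 groups. Not used was library 3 of the HP1g KO cells grafted with Treg, since the study excluded it for its GC content, exonic share and 5′ to 3′ bias. A count of 0 was bounded by 3 counts per library. These bounds cover counting error only, while SD and SE include the spread between libraries. No 2 libraries agreed within sampling noise.

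On simulated data at the means and depths of these 6 libraries, with 100 of 16015 genes changed at each fold size, edgeR recovered 31% of 2-fold and 85% of 4-fold changes with 6 false calls, and DESeq2 38% and 95% with 53 false calls. A 2-fold change lies on the fold threshold, and by the adjusted p alone edgeR recovered 42% and DESeq2 58% of them. For the difference from naive cells (17024 genes), edgeR recovered 8% of 2-fold and 60% of 4-fold changes with 2 false calls. DESeq2 recovered 30% and 83% there, with 36 false calls. The changed genes averaged at least 1 CPM. Genes were drawn independently and without a shift of replicate 1, so the rates do not cover lower genes or such a shift.

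Genes were named by rule: the HP1 genes, edgeR calls, the 10 highest and 10 lowest DESeq2 calls as defined in the text, the calls of each list or otherwise up to 3 members of lowest p, genes the study names, and genes called in a difference. Slamf6, Btla, Pou2af1, Sh2d1a, Bcl6, Icos, Cd40lg, the remaining Th2 members, Zfp992, Zfp781 and BC024063 were named after their values were seen. The comparison and the gene lists were chosen with earlier results of these data known. Alternatives were another normalization, no filter, other sets of libraries and covariates, and leaving out each library. Positions are from the GRCm39 annotation, and upstream sequences from RefSeq (GRCm38.p6).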

Additional observations from a re-analysis of the deposited data

Results flagged for a closer look

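The HP1g KO effect differed between grafted Tconv and naive cells for 4 genes by edgeR's interaction test (adjusted p below 0.05), and between the HP1g and HP1a lines for 2. Myo5b differed by 6.16 on the log2 scale between Tconv and naive cells, from 0 or 1 counts in each WT Tconv library, and Gm50287 by 2.71. For Casp1 the difference was 1.89, with a level of 2.99 ± 0.518 against 8.93 ± 2.26 CPM in naive KO and WT cells (SD, n = 3). For Gm19951 it was -3.48, with 26.3 ± 6.04 against 3.67 ± 0.978 CPM in naive cells. Between the lines, Rps7-ps3 differed by -2.40, with 36.4 ± 1.88 CPM in HP1a KO Tconv (SD, n = 3), and the other gene was a T cell receptor segment. Reads of the pseudogene Rps7-ps3 may be shared with its parent gene. With 3 libraries a group, single libraries were not tested as outliers.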

How the results depend on the processing

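The 7 edgeR calls in the 6 libraries became 264 with DESeq2, 60 with no filter on low counts, 20 with all HP1g line libraries in 1 fit, 45 with the library number set as a covariate and 40 with library numbers 5 to 8 alone, and were 6 with RLE size factors. The count was 0 to 12 when single libraries were left out, and the DESeq2 count then was 141 to 550, with 440 for library numbers 5 to 8 alone (the DESeq2 alternatives were chosen after seeing the data). For the difference between Tconv and naive cells, 4 genes became 103 with DESeq2 and 32 with no filter, and 0 to 12 without single libraries. For the difference between Tconv with and without Treg, 0 became 15 with DESeq2 and 1 with no filter, stayed at 0 with the left-out library included, and was 0 to 53 without single libraries. For the difference between the HP1g and HP1a lines, 2 became 142 with DESeq2 and 6 with no filter, and 2 to 5 without single libraries. Beyond the self-test, the cause of these moves was not tested.

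The replicate numbers were not taken as pairs, because the lowest correlation between same-numbered libraries lay under the criterion of 0.1. Deviations from the group means correlated between same-numbered libraries by 0.0817 to 0.536 in the main comparison. The range was 0.0580 to 0.536 in the difference with Treg, so all of these were positive. They reached -0.156 in the difference from naive cells and -0.140 in that between lines. Whether same-numbered libraries share a source is not given by the labels and was not tested. With the replicate block, the calls were 74 by edgeR and 309 by DESeq2 in the main comparison, and 0 (naive), 0 (with Treg) and 14 (lines) in the differences.

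Of the genes named in the text, 7 changed sign under some setting, all with overlapping groups. Without single libraries, log2 fold changes ranged from -0.18 to 0.30 for Tnf, -0.49 to 0.50 for Il17a, -0.18 to 0.023 for Ifng, -0.55 to 0.11 for Il2, -0.34 to 0.48 for Nt5e, -0.078 to 0.18 for Icos and -0.079 to 0.023 for Rps7-ps3. Tnf was at 0.0030 with no filter, 0.034 with the replicate block, 0.037 with the library number set and 0.15 with library numbers 5 to 8, Il17a at 0.044, 0.083 and 0.49 with the last 3, and Rps7-ps3 at 0.0047 with library numbers 5 to 8. The cause was not tested.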
